A study of Rattus norvegicus with 8 samples.

Results

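Type I interferon response genes were followed in the peripheral whole blood of male Wistar rats, across 4 arrays of rats fed a high-fat diet and 4 arrays of rats fed this diet with 1% mulberry leaf powder. The members were chosen by symbol, from a list of 46 genes that interferon induces or that carry its signal, and every probe set that the array's annotation assigns to a single one of these symbols was kept. This gave 47 probe sets for 36 genes, out of 31042 probe sets tested and 14217 genes named by 1 symbol. Members without such a probe set were Ddx58, Gbp5, Ifi47, Oas1i, Oas1k, Oas2, Oas3, Oasl2, Trim21 and Xaf1, and these are not analysed here.

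Both groups were bought as 7-week-old animals, acclimated on the CE-2 normal diet and then kept for 8 weeks on the high-fat diet (Quick fat), so the high-fat diet is common to all 8 arrays and the leaf powder is what distinguishes them. Each diet group had 10 rats, and blood was drawn on day 56 after a night without food. The arrays of a diet are called biological replicates in the labels, which give neither which rats were used nor whether an array holds 1 rat or a pool, so p-values here measure the spread between these samples. Rats on a normal diet were not analysed here.

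Type I interferons are secreted when a cell senses foreign or misplaced nucleic acid, and they act through a receptor that is present on nearly all cells. The receptor's kinases phosphorylate STAT2, which joins IRF9 in a complex that binds interferon-stimulated response elements in front of a large set of genes. In blood, leukocytes of nearly every kind respond, and the products of these genes sense viral RNA, degrade or mark it, trap virus particles and tune the signal itself. The transcript levels of these genes in whole blood are widely used as a readout of interferon exposure. In a bulk sample of this kind, fewer cells of a type and less RNA per cell cannot be told apart.

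The response element is the shared sequence feature of such genes, and the start regions of several members are shown for its place and letters. In the RefSeq sequences (build GRCr8), 35 of the 46 symbols had an entry. The 250 bases before the annotated start were searched for the core of the element, GAAA followed after any 2 bases by a second GAAA, on both strands, so that a pair of TTTC spaced alike also counted and matches could overlap. It was present in 24 of the 35 (68.6%), against 1140 of 33469 promoters of all genes (3.41%) and 2.68% of the promoters of genes that the array annotation names. In 19 of the 24 the match farthest from the start began within 100 bases of it, and 7 promoters held 2 matches. The shorter STAT dimer letters, TTC and GAA with any 3 bases between them, which read the same on both strands, were counted separately, so a base may belong to both motifs. They were found in 10 of the 35 (28.6%), against 7.67% of all promoters. A match describes letters, not a bound site. Irf7 is shown because it had the largest diet difference of the members, Ifit3 and Oas1a because mulberry replicate 4 was far above the other arrays for both, and Rsad2 because it was not highest in that array. Capitals mark the matches to the core, and each sequence ends at the base before the annotated start.
Irf7 (chr1:205800024-205800273, minus strand): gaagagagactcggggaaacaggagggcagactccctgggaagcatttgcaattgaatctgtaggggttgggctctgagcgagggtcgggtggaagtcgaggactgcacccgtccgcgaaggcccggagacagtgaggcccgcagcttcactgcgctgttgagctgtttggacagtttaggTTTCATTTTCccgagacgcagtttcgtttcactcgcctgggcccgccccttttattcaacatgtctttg
Ifit3 (chr1:241527076-241527325, plus strand): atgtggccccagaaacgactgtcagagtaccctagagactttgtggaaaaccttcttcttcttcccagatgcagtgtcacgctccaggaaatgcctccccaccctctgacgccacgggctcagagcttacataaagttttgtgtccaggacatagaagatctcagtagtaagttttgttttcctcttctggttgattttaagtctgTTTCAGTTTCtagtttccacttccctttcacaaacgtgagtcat
Oas1a (chr12:41330216-41330465, plus strand): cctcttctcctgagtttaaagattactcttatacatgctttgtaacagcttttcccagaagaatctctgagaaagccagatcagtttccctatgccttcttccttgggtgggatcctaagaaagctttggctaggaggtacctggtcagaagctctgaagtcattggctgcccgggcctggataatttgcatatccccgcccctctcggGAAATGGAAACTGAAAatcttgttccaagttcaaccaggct
Rsad2 (chr6:48788121-48788370, minus strand): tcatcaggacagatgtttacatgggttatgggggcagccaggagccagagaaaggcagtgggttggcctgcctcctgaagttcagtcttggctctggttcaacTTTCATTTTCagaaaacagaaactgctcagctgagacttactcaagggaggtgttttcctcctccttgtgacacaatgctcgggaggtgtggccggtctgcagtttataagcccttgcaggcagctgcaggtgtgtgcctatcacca
The match of Irf7 began 69 bases before the start, that of Ifit3 44 bases and that of Rsad2 147 bases before it. Oas1a had a pair of overlapping matches, beginning 41 and 35 bases before its start, and Oas1b on the opposite strand of the same chromosome had a like pair at 59 and 53 bases. No match to the core lay in this window of Cmpk2, Dtx3l, Herc6, Ifi47, Irf9, Mx1, Oasl, Parp9, Stat2, Trim25 or Ube2l6.

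The deposited values ran from 5.17 to 15.3 and are read as log2 summaries. Their spread between arrays was compressed, with a median SD of 5.31e-06 over all probe sets and 99.4% of them under 0.001, and the compression may differ between probe sets. Levels are therefore given in SD units, the distance of an array from that probe set's mean over the 8 arrays divided by its SD, and diet differences as mulberry minus high-fat in the same unit. With 4 arrays per diet a difference cannot exceed 1.87 SD units. Haemoglobin beta (Hbb), the main protein of red cells, had a deposited mean of 15.1, near the top of the scale, and Pf4, a chemokine of platelets, 12.7. Genes with several probe sets are given by the one of highest mean unless another is named.

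Interferon response genes had mostly lower means with mulberry, and most of them spread more widely within the mulberry than within the high-fat group. Of the 36 genes, 30 had a lower mean with mulberry and 6 a higher one, where 50.9% of all genes had a lower mean, and the median difference was -0.566 SD units against -0.0190 over all genes. No member passed the threshold: by limma with Benjamini-Hochberg adjustment over all 31042 probe sets, 0 of the 47 probe sets had an adjusted p under 0.05 (background 0%), 0 had an unadjusted p under 0.05 (background 1.61% lower and 2.74% higher), and the smallest unadjusted p was 0.0556. The diet groups overlapped for all 47 probe sets, where 0.915% of all probe sets separated downwards and 1.60% upwards. The mean over the 36 genes was 0.256, 0.192, 0.0346 and 0.498 in high-fat replicates 1 to 4, an average of 0.245 ± 0.192 (SD, n = 4). It was -0.465, -1.07, -0.839 and 1.4 in mulberry replicates 1 to 4, an average of -0.245 ± 1.12 (SD, n = 4). Mulberry replicates 1, 2 and 3 thus lay below every high-fat array and mulberry replicate 4 above every one. Counts of lower means by role are on the deposited scale, and no member of any role passed. Lower means came to 18 of 36 after median centring of the deposited values, where 4.3% of all genes were lower. They came to 19 after quantile normalization (41.5% of all genes) and 17 with the hybridization controls as a covariate (52.5% of all genes). A role's count is followed by those settings where they change it, and the same shares of all genes apply there.

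**Figure D1:**
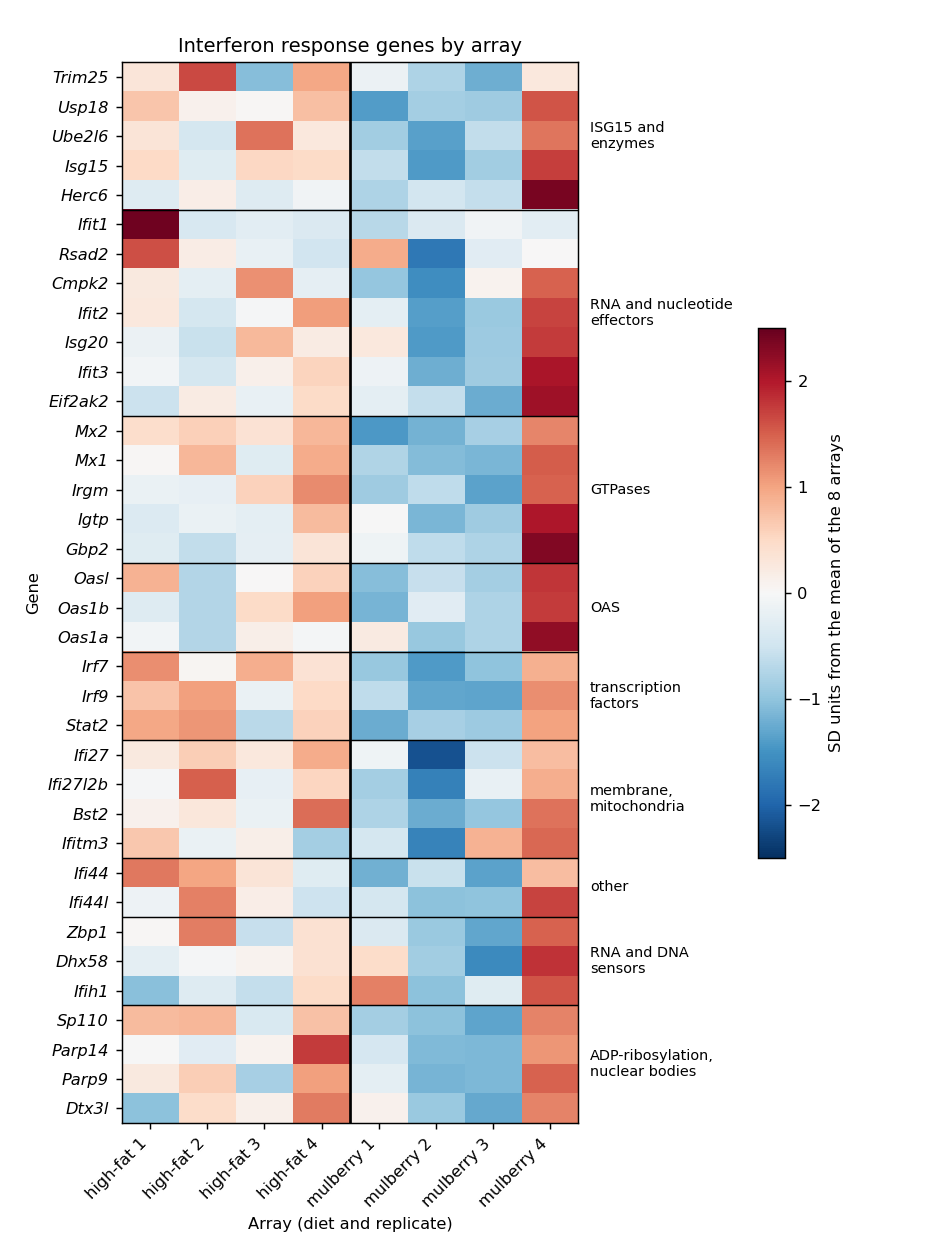
Level of each of the 36 interferon response genes (rows, grouped by role) on each of the 8 arrays (columns), as SD units from that gene's mean over the arrays; red is above and blue below the mean. Mulberry replicate 4 is the highest array for 24 genes, and mulberry replicate 2 or 3 is the lowest for 28.

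Mulberry replicate 4 was the highest of all 8 arrays for 24 of the 36 genes, against 11.6% of all genes, and exceeded the other mulberry arrays for 34, against 28.6% of all genes. The 2 exceptions were Ifit1 and Rsad2. Mulberry replicate 2 or 3 was the lowest array for 28 genes, against 21.7% of all genes, and both were below every high-fat array for 26, against 6.83%. Mulberry replicates 1, 2 and 3 were all below every high-fat array for 15 genes, against 2.74% of all genes. The SD within the mulberry group was the larger one for 34 genes, with a median ratio of 2.02 to the SD within the high-fat group, while over all genes it was the larger one for 42.7% and the median ratio was 0.889. On the deposited scale 21 of the 47 member probe sets (44.7%), and 19 of the 36 that stand for a gene, were among the 1000 probe sets of largest SD, which are 3.22% of those tested. Isg15 stood at rank 17, Ifit2 at rank 15, Mx2 at rank 24, Ifi27 at rank 38, Ifit3 at rank 70 and Irf7 at rank 90, although the unknown compression limits what such ranks compare.

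The transcription factors that carry the signal had lower means with mulberry in 3 of 3 cases, but in 2 after quantile normalization, where Irf9 turned to 0.707, and in 1 after median centring, where Irf9 turned to 0.285 and Stat2 to 0.157. Irf7, the factor that amplifies interferon production and is itself induced, was at 1.15, 0.0423, 0.916 and 0.368 in the high-fat arrays and -0.956, -1.41, -1.01 and 0.888 in the mulberry arrays. Only mulberry replicate 4 overlapped the high-fat range, and the difference was -1.24 ± 0.538 (SE; adjusted p = 1 by limma). Irf9, the DNA-binding partner of the STATs, was at 0.722, 1.03, -0.162 and 0.495 with high fat and -0.627, -1.3, -1.32 and 1.16 with mulberry, a difference of -1.04 ± 0.597. A further Irf9 probe set differed by -0.661 ± 0.672. Stat2, which brings the activation domain, was at 0.967, 1.1, -0.68 and 0.582 with high fat and -1.24, -0.838, -0.899 and 1 with mulberry, and differed by -0.986 ± 0.61. Its other probe set differed by -0.897 ± 0.630. In all 5 probe sets mulberry replicates 1 to 3 were negative and replicate 4 positive, and high-fat replicate 3 was the lowest of its group except for Irf7, where it was replicate 2.

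Of the sensors of foreign nucleic acid 2 of 3 had a lower mean, against 1 with the hybridization controls and 0 after median centring, and all 3 had their highest value in mulberry replicate 4. Ifih1 (MDA5), the sensor of long double-stranded RNA, was at -1.05, -0.327, -0.605 and 0.476 in the high-fat and 1.27, -1.03, -0.295 and 1.57 in the mulberry arrays, so that mulberry replicates 1 and 4 exceeded the rest, and its difference of 0.752 ± 0.658 was the highest of the 36 genes. The Ifih1 probe set was dim, with a deposited mean of 6.55 against array medians of 6.57. Dhx58 (LGP2), a helicase that tunes MDA5 and RIG-I, was at -0.239, -0.0326, 0.0847 and 0.39 and 0.455, -0.878, -1.59 and 1.81, with a difference of -0.102 ± 0.719. Its probe set can match several transcripts, and the others of the gene differed by -0.909 ± 0.644 and -0.319 ± 0.709. Zbp1, a sensor of Z-form nucleic acid, was at 0.0358, 1.28, -0.579 and 0.382 and -0.364, -0.927, -1.31 and 1.48, low in mulberry replicates 2 and 3, and differed by -0.557 ± 0.685.

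ISG15 and the enzymes that attach or remove it had lower means in 4 of 5 cases, in 3 after median centring or quantile normalization and in 2 with the hybridization controls. Isg15, a ubiquitin-like modifier and one of the most strongly induced interferon genes, was at 0.495, -0.301, 0.509 and 0.481 in the high-fat arrays and -0.625, -1.42, -0.876 and 1.73 in the mulberry arrays. Mulberry replicates 1 to 3 were below every high-fat array and replicate 4 above every one, which left a difference of -0.592 ± 0.681 (adjusted p = 1 by limma). Usp18, the protease that removes ISG15 and restrains the receptor, was at 0.687, 0.0981, 0.0224 and 0.748 and -1.4, -0.846, -0.895 and 1.58, the same arrangement, with a difference of -0.778 ± 0.653. Ube2l6, the conjugating enzyme for ISG15, was at 0.315, -0.438, 1.36 and 0.258 with high fat and -0.863, -1.36, -0.619 and 1.35 with mulberry, and differed by -0.748 ± 0.658. Trim25, a ligase that activates RIG-I, was at 0.312, 1.64, -1.06 and 0.966 and -0.138, -0.769, -1.21 and 0.255, with high-fat replicate 2 its highest array and the wider spread within high fat, and differed by -0.933 ± 0.625. Herc6, the main ISG15 ligase of rodents, was at -0.315, 0.172, -0.322 and -0.0917 with high fat and -0.767, -0.457, -0.589 and 2.37 with mulberry. Replicate 4 was the highest of the 8 arrays and the other mulberry arrays were below every high-fat array, and the difference was 0.278 ± 0.71.

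The oligoadenylate synthetases make the messenger that switches on RNase L. All 3 measured members peaked in mulberry replicate 4, and 2 had a lower mean, 1 after median centring, 3 after quantile normalization and 0 with the hybridization controls. Oas1a was at -0.0722, -0.734, 0.145 and -0.0432 in the high-fat and 0.216, -0.952, -0.77 and 2.21 in the mulberry arrays, a difference of 0.352 ± 0.705. Its probe set is of a kind that can match several transcripts. Oas1b, a synthetase tied to flavivirus resistance in mice, was at -0.313, -0.737, 0.475 and 1.03 with high fat and -1.16, -0.279, -0.762 and 1.75 with mulberry, and differed by -0.229 ± 0.713. Oasl, a relative that binds RNA without making the messenger, was at 0.868, -0.734, 0.0157 and 0.569 with high fat and -1.06, -0.583, -0.859 and 1.78 with mulberry, and differed by -0.36 ± 0.704. Without replicate 4 the mulberry values of these genes reached no higher than 0.216, the Oas1a level of replicate 1.

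Effectors that bind or cut RNA or alter nucleotides had lower means in 6 of 7 cases, in 5 after median centring, 3 after quantile normalization and 1 with the hybridization controls, and this class held Ifit1 and Rsad2, for which high-fat replicate 1 was the highest array. Ifit3, which stabilises IFIT1 on viral RNA, was at -0.0644, -0.439, 0.132 and 0.551 in the high-fat arrays and -0.127, -1.21, -0.889 and 2.05 in the mulberry arrays. The diet difference was near 0 (-0.0899 ± 0.717) although the mulberry arrays spanned from the lowest to the highest of the 8. Ifit2 was at -0.25, -1.37, -0.92 and 1.69 with mulberry and differed by -0.424 ± 0.699, and its second probe set by -0.373 ± 0.703. Ifit1, which binds viral RNA caps, was at 2.44, -0.399, -0.271 and -0.364 with high fat and -0.692, -0.369, -0.0837 and -0.259 with mulberry. High-fat replicate 1 alone set its spread, and mulberry replicate 4 stood among the other arrays, whereas Ifit2 and Ifit3 were highest there. Rsad2 (viperin), a radical SAM enzyme that makes a chain-terminating nucleotide, was at 1.61, 0.194, -0.176 and -0.472 and 0.921, -1.79, -0.292 and 0.00852, again with high-fat replicate 1 highest. Cmpk2, the nucleotide kinase encoded beside Rsad2, was highest in mulberry replicate 4, at 0.239, -0.236, 1.15 and -0.218 and -0.961, -1.55, 0.0953 and 1.48, with a difference of -0.467 ± 0.695. Its other probe set was highest in high-fat replicate 3 (1.395, against 1.18 in mulberry replicate 4) and differed by -0.317 ± 0.707. Isg20, an exonuclease, differed by -0.156 ± 0.715 and Eif2ak2 (PKR), the kinase that halts translation on double-stranded RNA, by 0.0127 ± 0.718. Eif2ak2 stood at 2.11 in mulberry replicate 4 and no higher than 0.483 elsewhere.

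The large GTPases had lower means in 4 of 5 genes, in 3 after median centring or quantile normalization and 2 with the hybridization controls. All 5 peaked in mulberry replicate 4. Mx2, an antiviral dynamin-like GTPase, was at 0.448, 0.594, 0.358 and 0.834 in the high-fat and -1.43, -1.19, -0.831 and 1.22 in the mulberry arrays. The 4 high-fat arrays lay within a narrow band (SD 0.208) and mulberry replicates 1 to 3 well under it, and the difference was -1.12 ± 0.576 (adjusted p = 1 by limma). The other Mx2 probe set differed by -0.798 ± 0.649 and was highest in high-fat replicate 4 (1.37, against 1.35 in mulberry replicate 4). Mx1, its nuclear relative, was at 0.0237, 0.828, -0.306 and 0.925 and -0.747, -1.09, -1.15 and 1.52, and differed by -0.735 ± 0.66. Irgm, a regulator of the immunity-related GTPases, was at -0.158, -0.203, 0.584 and 1.19 and -0.891, -0.641, -1.35 and 1.47, and differed by -0.704 ± 0.665. Igtp (Irgm3), of the same family, differed by -0.0167 ± 0.718 and Gbp2, a guanylate-binding protein that responds to interferon gamma as well, by 0.403 ± 0.701. Gbp2 was at -0.299, -0.618, -0.219 and 0.33 with high fat and -0.0995, -0.644, -0.766 and 2.32 with mulberry, so replicate 4 alone stood clear of the other 7 arrays.

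Among membrane and mitochondrial proteins 3 of 4 genes had lower means (1 after quantile normalization, with 3 at a difference of 0), and mulberry replicate 2 was the lowest array for all 4. Ifi27, a mitochondrial protein often used as a blood marker of viral infection, was at 0.248, 0.609, 0.265 and 0.936 with high fat and -0.105, -2.18, -0.542 and 0.764 with mulberry, a difference of -1.03 ± 0.599. Its paralog Ifi27l2b was at -0.0207, 1.5, -0.211 and 0.547 and -0.85, -1.68, -0.184 and 0.904, and differed by -0.907 ± 0.628. For both genes the other mulberry arrays lay closer to the high-fat range than replicate 2. Bst2 (tetherin), which holds budding virus at the cell surface, was at 0.108, 0.281, -0.168 and 1.4 and -0.765, -1.24, -0.974 and 1.36, and differed by -0.81 ± 0.647. Ifitm3, which blocks fusion of viruses in endosomes, differed by 0.101 ± 0.717, with -1.67 in mulberry replicate 2 and 1.43 in replicate 4; its probe set can match several transcripts.

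The ADP-ribosylation and nuclear body genes had lower means in 4 of 4 cases, in 2 after median centring or quantile normalization and in 3 with the hybridization controls. Sp110, a nuclear body protein of leukocytes, was at 0.789, 0.821, -0.377 and 0.726 in the high-fat and -0.847, -1.03, -1.31 and 1.23 in the mulberry arrays, and differed by -0.979 ± 0.612, while its other probe sets differed by -0.331 ± 0.708 and -0.435 ± 0.698. Parp9 and Dtx3l encode partners in a ubiquitin ligase complex and are neighbours on chromosome 11 with starts that face away from each other. Parp9 was at 0.236, 0.616, -0.822 and 1.02 and -0.251, -1.16, -1.12 and 1.48, and Dtx3l at -1.03, 0.463, 0.122 and 1.3 and 0.104, -0.931, -1.27 and 1.24. Both were low in mulberry replicates 2 and 3 and high in high-fat replicate 4 and mulberry replicate 4, and their differences were -0.526 ± 0.689 and -0.429 ± 0.699. Parp14, a mono-ADP-ribosyltransferase, was at -0.015, -0.274, 0.0921 and 1.75 and -0.417, -1.11, -1.12 and 1.1, and differed by -0.774 ± 0.654. It was the 1 gene whose probe sets had opposite signs, the second (rank 29657 in deposited SD) differing by 0.820 ± 1.10. Of the genes with less settled roles, Ifi44 was at 1.32, 0.979, 0.315 and -0.298 and -1.19, -0.551, -1.34 and 0.766, a difference of -1.16 ± 0.568. Ifi44l was at -0.134, 1.26, 0.164 and -0.515 and -0.446, -1.02, -0.999 and 1.7, and differed by -0.385 ± 0.703. Both turned above 0 after median centring, to 0.905 and 1.02, and were at 0 after quantile normalization.

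**Figure D2:**
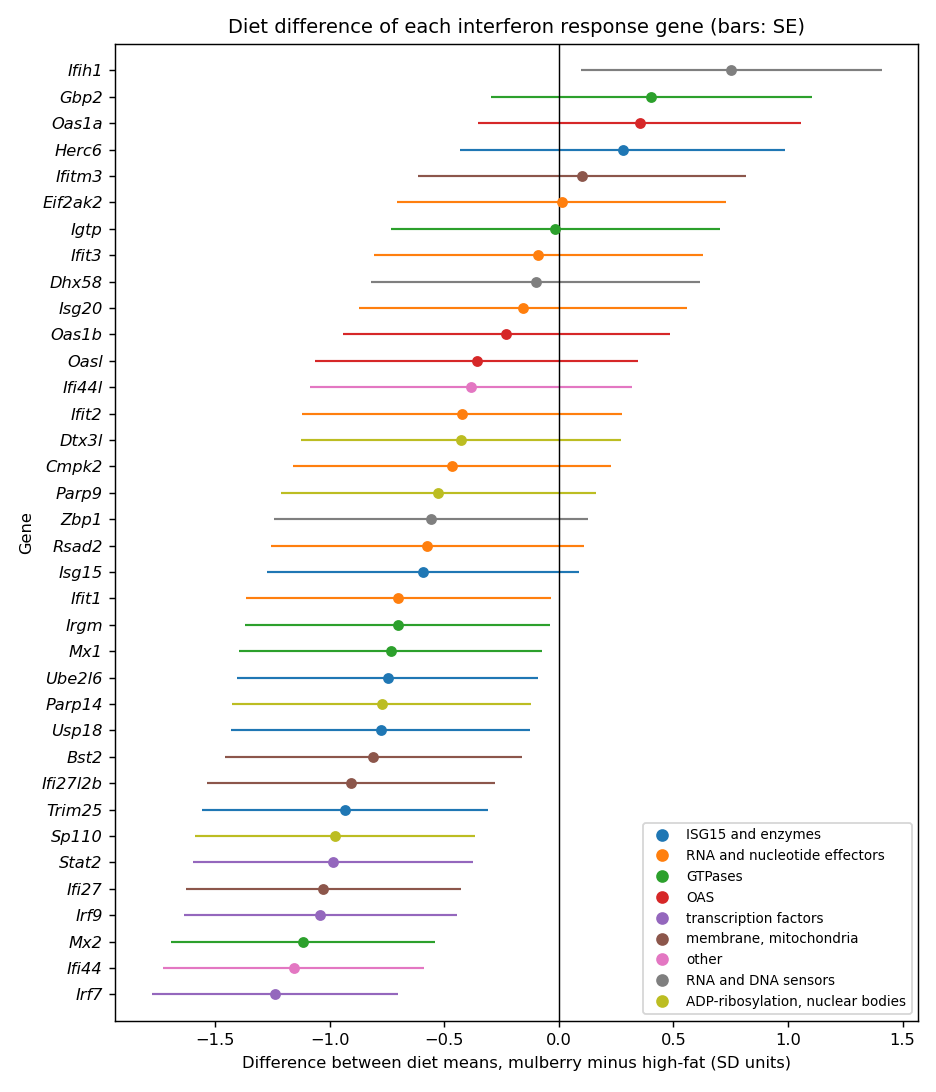
Difference between the diet means of each of the 36 genes, mulberry minus high-fat in SD units, with the limma SE as bars and colours for the roles (4 arrays per diet). The values run from -1.24 for Irf7 to 0.752 for Ifih1, 30 are below 0, and none passed the adjusted threshold.

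The size of the diet difference depended on which arrays were counted. With each array left out in turn, from 26 to 35 of the 36 genes had a lower mean, and no probe set of a member passed. The median difference ran from -1.32 to -0.242. Each of these fits was scaled by the SD over its own arrays, so its sizes are not in the unit of the full fit. That SD shrinks where the array left out was an extreme one, which enlarges the difference in SD units. Without mulberry replicate 4, 35 genes had a lower mean (background 50.3%), Ifih1 being the other, and 17 had an unadjusted p under 0.05 in that direction (background 2.39%), with a smallest adjusted p of 0.945 by limma. In that fit Mx2 differed by -1.82, Irf7 by -1.73, Usp18 by -1.72, Irf9 by -1.68, Sp110 by -1.66 and Isg15 by -1.65. The genes Oas1a, Eif2ak2, Gbp2, Herc6 and Ifitm3, whose means were higher with all arrays, had lower means there. Without mulberry replicate 2 the median was -0.242 with 26 genes lower (background 51.8%). Mulberry replicate 4 was identified as the high array from these same values, and nothing in the labels sets it apart. Lower means and smaller p-values without it follow in part from that choice and do not test a diet difference. Genes lower at an unadjusted p under 0.05 by limma numbered 1 without high-fat replicate 3 and 1 without high-fat replicate 4. They numbered 0 with all arrays and without any other single array.

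**Figure D3:**
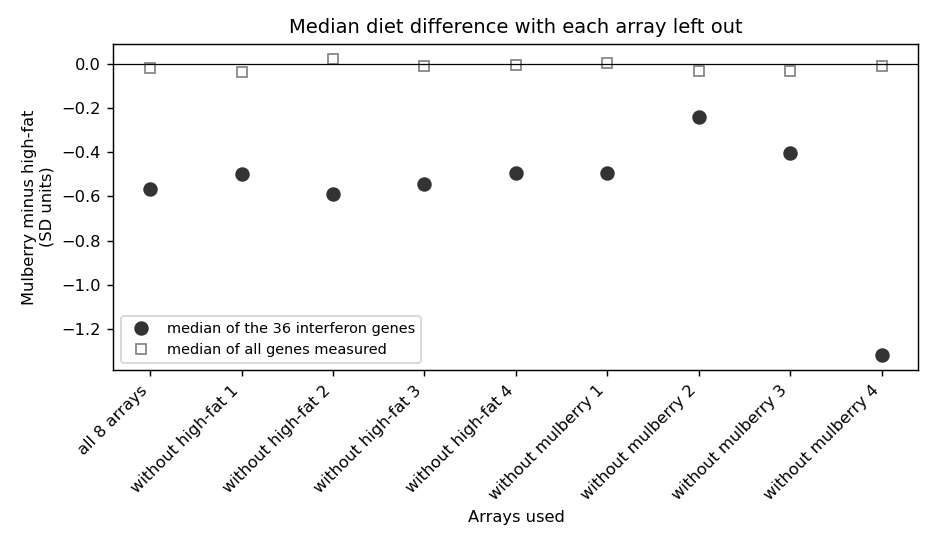
Median diet difference of the 36 interferon genes (filled circles) and of all genes measured (open squares), mulberry minus high-fat in SD units, with all 8 arrays and with each array left out. The interferon median is -0.566 with all arrays and -1.32 without mulberry replicate 4, while the median of all genes stays near 0. The SD unit of each fit is that of the arrays it used.

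Among the other genes of the pathway more had their highest value in high-fat replicate 4 than in mulberry replicate 4. Of 82 symbols, with 2 genes under an older and a newer name, for ligands, receptors, kinases, sensors, factors, inhibitors and interferon gamma targets, 64 were measured: 46 had lower and 18 higher means, 0 passed the adjusted threshold, and 3 had an unadjusted p under 0.05, all lower (background 1.72% of genes lower and 2.43% higher). The diet groups did not overlap for Irf8 and Pias3, lower with mulberry, and Tap2, higher (background 0.957% and 1.46%). High-fat replicate 4 was the highest array for 32 of the 64 and mulberry replicate 4 for 8, against 17.2% and 11.6% of all genes. Among these were 4 of 5 receptor genes and 8 of 14 sensors, adaptors and kinases with their peak in high-fat replicate 4. Tlr7, a sensor of single-stranded RNA, was at 1.86 there and 1.06 in mulberry replicate 4, Tlr8 at 1.90 and 0.675, and the adaptor Myd88 at 1.58 and 0.735. Of the interferon genes themselves only Ifnb1, Ifnk and Ifng were measured. Their deposited means of 6.02, 5.88 and 5.77 lay under the array medians of 6.57, and without detection calls their expression is not established. Ifnb1 differed by 0.954 ± 0.628, Ifnk by 0.399 ± 1.23 and Ifng by -0.223 ± 1.05. The receptor subunits Ifnar1 and Ifnar2 differed by 0.705 ± 0.753 and 0.186 ± 0.715.

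The 3 pathway genes with an unadjusted p under 0.05 were the receptor kinase Jak1 (-1.27 ± 0.529), Irf8, a factor of monocytes and dendritic cells (-1.27 ± 0.526), and Pias3, an inhibitor of STAT signalling (-1.53 ± 0.503), none with an adjusted p under 0.05 by limma. Tyk2, the kinase bound to Ifnar1, differed by -0.134 ± 0.718. Among inhibitors 14 of 18 had lower means, with Socs1, which blocks the receptor kinases, at -0.732 ± 0.662 and Samhd1, a nuclease that is itself induced, at -0.869 ± 0.636. Class I loading genes and interferon gamma targets had lower means in 11 of 15 cases and none passed, with differences of -1.01 ± 0.604 for the immunoproteasome subunit Psmb8 and 1.21 ± 0.548 for the peptide transporter Tap2. Nlrc5, the activator of class I genes, peaked at 2.18 in mulberry replicate 4.

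Blood cell markers also differed between the arrays. Platelet markers were highest in mulberry replicate 4 for 10 of 10 genes, with list means of -0.0217, -0.242, 0.186 and -1.53 in the high-fat arrays and -0.387, 0.585, -0.209 and 1.62 in the mulberry arrays. Monocyte and macrophage markers, 11 of 13 with lower means, had list means of 0.0473, -0.409, -0.414 and 1.73 and 0.372, -0.637, -0.902 and 0.211, lowest in mulberry replicates 2 and 3 as the interferon genes were, but highest in high-fat replicate 4. Natural killer markers, 12 of 13 lower, were at 0.0149, -0.112, -0.356 and 1.93 with high fat and ranged from -0.489 to -0.205 with mulberry. High-fat replicate 4 was the highest array for 11 of the 13, and it alone stood far above the other high-fat arrays. Plasmacytoid dendritic cells are the main blood source of interferon alpha. Of 12 markers 5 were measured, with list means from -0.0814 to 0.868 and from -0.982 to 0.699, and -0.285 in mulberry replicate 4. Their defining gene Siglech was not analysed here, and Irf8 is in this list and among the pathway genes. The measured markers did not peak together. Tcf4 and Bcl11a were highest in high-fat replicate 2, Il3ra and Pacsin1 in mulberry replicate 2 and Irf8 in high-fat replicate 4. Neutrophil markers were at 0.654 and B cell markers at -0.202 in mulberry replicate 4. As mulberry minus high-fat list means, platelet markers differed by 0.805 (10 of 10 higher), natural killer markers by -0.738, plasmacytoid dendritic markers by -0.665 (5 of 5 lower), B cell markers by -0.662 (8 of 8 lower) and monocyte and macrophage markers by -0.479. Neutrophil markers differed by 0.315, mast cell, basophil and eosinophil markers by 0.476, erythroid markers by -0.234 and T cell markers by 0.0741. The part of these lists in the interferon values was not tested.

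**Figure D4:**
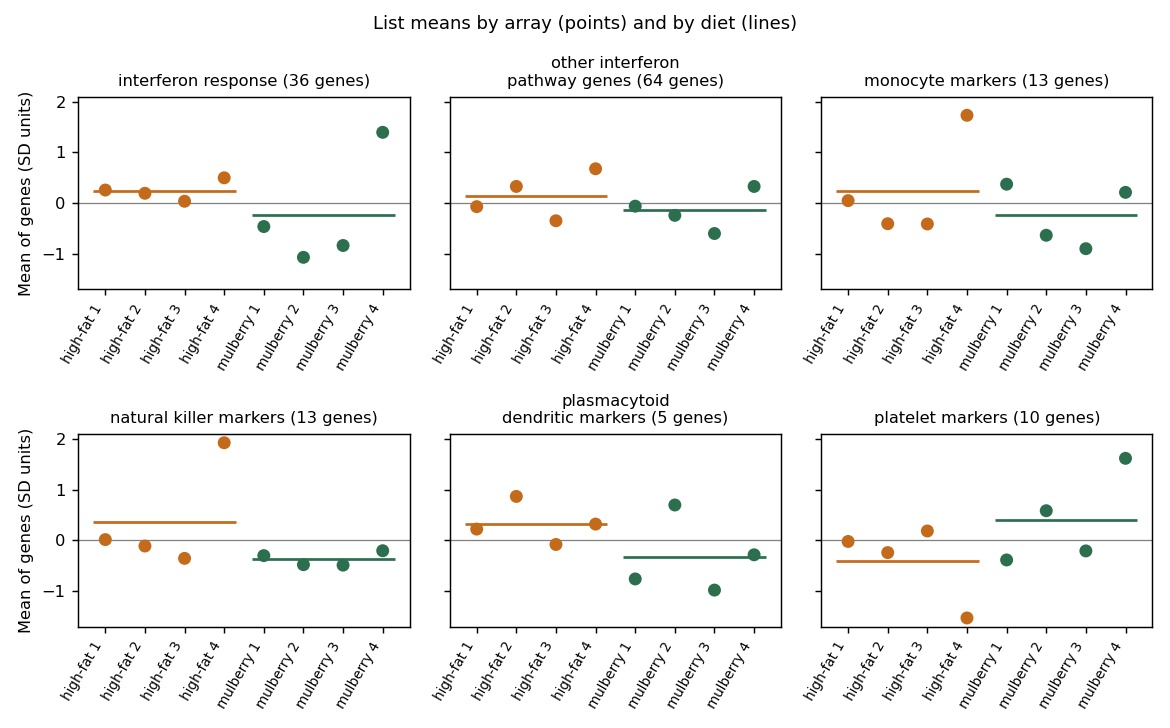
Mean of the genes of 6 lists on each array (points, SD units) with the mean of each diet as a line (orange high-fat, green mulberry, 4 arrays each). Interferon genes and platelet markers are highest in mulberry replicate 4, at 1.4 and 1.62, and monocyte and natural killer markers in high-fat replicate 4.

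The hybridization controls, bacterial transcripts added in set amounts, also differed between arrays. Their mean level in SD units was -1.44, 0.439, -0.160 and -1.07 in the high-fat arrays and 1.30, 0.695, 0.473 and -0.236 in the mulberry arrays, lower in mulberry replicate 4 than in the other mulberry arrays. With this level in the model 17 of the 36 genes had a lower mean, against 52.5% of all genes. The median difference turned to 0.0584, against -0.0509 over all genes. Mulberry replicates 1 to 3 exceeded every high-fat array in this level, so it cannot be fully told apart from diet. The differences moved from -1.24 to -0.478 for Irf7, from -1.12 to -0.394 for Mx2, from -1.04 to -0.589 for Irf9, from -0.986 to -0.306 for Stat2, from -0.979 to -0.311 for Sp110 and from -1.03 to -0.727 for Ifi27. With the polyA controls, added before labelling, 34 genes had a lower mean (51.9% of all genes) and the median was -0.830. Centring each array on its median in SD units left 31 genes lower (55.1% of all genes) with a median of -0.622. Centring the deposited values on the array median moved the median of all genes to 1.15 SD units and left 18 members lower, where 4.30% of all genes were lower. Quantile normalization left 19 lower, against 41.5% of all genes, with 10 members at a difference of 0.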

How the data were processed

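Total RNA of peripheral whole blood was isolated with TRIzol LS and an RNeasy column, and 200 ng was labelled with the GeneChip IVT Express kit, per the labels' protocols. From their range, the deposited numbers were taken to be log2 summaries of probe sets made by the authors; how they were summarised and normalized is not given in the sources used here. Detection calls were not used, and the number of arrays limits the precision. Of the probe sets, 57 manufacturer controls were left out and 31042 were tested in limma 3.58.1 (R 4.3.3; lmFit and eBayes, mulberry minus high-fat, two-sided, no covariate, Benjamini-Hochberg threshold 0.05). Differences and SE were divided by the SD over the 8 arrays after the fit, which was run on the deposited values. Where an array was left out, the SD was that over the remaining arrays. Because eBayes pools variance across probe sets, SE and p-values still depend on the compression. Gene names came from the platform annotation, with 20826 probe sets naming 1 gene, 436 several and 9780 none, and all 36 member genes matched RefSeq (GRCr8) by gene number. Tables were made in Python 3.11.15. The fit was tested on simulated data.

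The members and all lists were chosen with earlier results of these data known, so no list test was run. Per-array values were given for the 3 genes of smallest unadjusted p in each role and genes with probe sets of opposite sign; Isg15, Ifit2, Ifit3, Herc6, Gbp2, Dtx3l, Eif2ak2, Isg20, Ifitm3 and Igtp, and the pathway genes named, were named after their values were seen. The labels name no pairing of arrays across diets by replicate number, and the main fit used none. Alternatives were other scalings, a replicate block, control levels as covariates, each array left out, array weights, a filter on dim probe sets, a trended robust variance, a unit from the SD within diets, other choices of probe set per gene and other thresholds.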

Additional observations from a re-analysis of the deposited data

Results flagged for a closer look

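Within each diet of 4 arrays, a value was singled out when its gap to the nearest other array exceeded Dixon's critical share of the group's range, which chance gives in about 1 of 20 groups. Of 92 groups examined, 12 had such a value. They are not independent, because 5 are means of genes tested here and the genes come from the same arrays, where many moved together. The share given by chance therefore does not apply to this count.

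Mulberry replicate 4 was set apart above the other mulberry arrays for Mx1 (1.52 SD units), Oasl (1.78) and Herc6 (2.37), and for the mean of the transcription factors (1.02), of ISG15 and its enzymes (1.46), of the oligoadenylate synthetases (1.91), of the GTPases (1.71) and of Ifi44 with Ifi44l (1.23). High-fat replicate 1 was set apart for Ifit1, at 2.44, with the other high-fat arrays from -0.399 to -0.271. High-fat replicate 2 was the low array for Isg15 at -0.301, high-fat replicate 3 the low array for Sp110 at -0.377, and high-fat replicate 4 the high array for Igtp at 0.788.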

How the results depend on the processing

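No probe set of a member was called under any alternative run. The filter on dim probe sets left out Ifih1, Herc6, Ifitm3 and Oas1b, with deposited means of 6.55, 6.23, 5.87 and 6.01. The number of genes with a lower mean (30 of 36) was 18 after median centring, 17 with the hybridization controls as a covariate, 19 after quantile normalization and between 29 and 34 under the other alternatives that used all arrays (29 of 32 with the brighter probe sets and 29 of 33 without those that can match several transcripts), and between 26 and 35 with 1 array left out. Under median centring and under the hybridization control covariate, the median difference of -0.566 turned to 0.00357 and 0.0584 respectively. The mean difference of -0.490 turned to 0.0468 and 0.101. With 1 array left out the median and mean differences ran from -1.32 to -0.242 and from -1.23 to -0.232, in SD units of the remaining arrays. The same unit applies to the differences by gene with 1 array left out. The count of other pathway genes with a lower mean (46 of 64) was 22 after quantile normalization and 10 after median centring. With the replicate block, the lower count was 30 with 0 probe sets called. Over all probe sets, 1728 had an unadjusted p under 0.05 by limma with the block and 1352 without it. Same-numbered arrays correlated in their deviations from the diet means by -0.0462, -0.0505, 0.246 and 0.163. The best match had the same number for replicates 3 and 4 but not for 1 and 2, so whether the numbers pair the arrays is not settled.

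By gene, quantile normalization turned Oas1a to -0.483, Irf9 to 0.707, Ifih1 to -0.340, Trim25 to 0.918, Zbp1 to 0.320 and Igtp to 0.0590, and gave 0 for 10 other genes. Median centring turned Isg20 to 0.827, Oas1b to 0.812, Irf9 to 0.285, Stat2 to 0.157, Ifi44 to 0.905, Ifi44l to 1.02, Dhx58 to 1.49, Trim25 to 1.01, Zbp1 to 0.121, Parp14 to 0.655, Dtx3l to 0.0842 and Igtp to 0.131; in SD units it turned Eif2ak2 to -0.0668. The hybridization controls turned Isg15 to 0.307, Isg20 to 0.337, Ifit1 to 0.225, Ifit2 to 0.512, Ifit3 to 0.704, Oas1b to 0.762, Oasl to 0.950, Usp18 to 0.276, Dhx58 to 0.249, Cmpk2 to 0.183, Parp9 to 0.0861, Irgm to 0.0306 and Igtp to 0.659, and the polyA controls Oas1a to -0.119, Eif2ak2 to -0.488, Herc6 to -0.0562 and Ifitm3 to -0.0875. Array weights turned Eif2ak2 to -0.125 and Ifitm3 to -0.0980. With 1 array left out, the differences ran from -1.002 to 0.328 for Isg20, -1.30 to 0.318 for Ifit3, -0.671 to 0.731 for Oas1a, -1.11 to 0.126 for Oas1b, -0.980 to 0.497 for Dhx58, -1.22 to 0.456 for Eif2ak2, -0.791 to 0.706 for Gbp2, -1.49 to 0.565 for Herc6, -0.407 to 0.846 for Ifitm3 and -1.11 to 0.378 for Igtp. The cause was not tested.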
